A study of Drosophila melanogaster with 6 samples.

Results

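The Wnt gene cluster (Wnt4, wg, Wnt6 and Wnt10) and the dpp gene of Drosophila melanogaster were examined for binding of Yorkie (Yki) in whole embryos. The members were the peaks of the deposited Yki list that overlap, by at least 1 bp, the stretch of chromosome arm 2L at 7250000 to 7375000 for the Wnt cluster or at 2425000 to 2465000 for dpp. Both stretches are FlyBase release 5 positions, and the rule uses no peak score. Of the 5136 peaks in the list, 583 lay on 2L and 3 in these windows, of which 2 belonged to the Wnt cluster and 1 to dpp.

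The series compares 3 libraries of chromatin precipitated with Yki91, a crude rabbit polyclonal serum against full-length Yki, with 3 libraries of input DNA. All 6 came from embryos aged 8 to 16 h of the strain Y cn bw sp. As alleles common to all libraries, the labels give y[1] and oc[R3.2], then Gr22b[1] with Gr22d[1], as well as cn[1] and CG33964[R4.2], followed by bw[1] along with sp[1], and finally LysC[1], lab[R4.2], MstProx[1], also GstD5[1] and Rh6[1]. The deposited list is 1 for the whole series and gives each peak a start, an end and a score. No spread between libraries can be had from it, the depth is unknown, and every value below is a description without a test. Because whole embryos were used, strong binding in few cells and weak binding in many cannot be told apart.

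Yki is the transcriptional coactivator that the Hippo pathway restrains by phosphorylation, and it binds DNA by way of factors that include Scalloped. The wg gene encodes Wingless, the Wnt ligand that patterns the embryonic segments and, later, the wing disc. Wnt4, Wnt6 and Wnt10 encode further secreted Wnt ligands of the same family. The dpp gene encodes Decapentaplegic, a ligand of the bone morphogenetic protein family that patterns the dorsal side of the embryo and the imaginal discs. Wingless and Decapentaplegic both act over a distance from the cells that make them, and both promote growth of the wing disc, a tissue in which Yki drives growth as well.

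The RefSeq gene table, which follows release 6, was used for the order of the genes only. In it the cluster runs from Wnt4 through wg and Wnt6 to Wnt10. The genes CG31909 and lncRNA:CR45304 are listed between Wnt4 and wg and between wg and Wnt6, respectively, and asRNA:CR44063 and ninaC come after Wnt10. On the other side Wnt4 is preceded by CG13786. The dpp gene is listed between lncRNA:CR44912 and the tRNA gene tRNA:Tyr-GTA-1-2. The positions of release 6 were not carried over to the release 5 peaks, so no peak is assigned to a promoter, an exon, an intron or a single gene of the cluster.

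The dpp window held 1 strong peak. It lay on 2L at 2450812 to 2451351, was 540 bp wide and had a score of 143.66. The score is the authors' own value for the peak, whose scale is not stated, and it serves only to rank peaks within the list. By that ranking 57 of the 583 peaks on 2L, or 9.78%, scored at least as high, counting the dpp peak itself. Over the 6 chromosome arms the share was 9.49%, or 302 of 3182 peaks. The dpp peak was thus among the strongest 10% of the arm without being close to its highest score, 489.6.

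The Wnt cluster held 2 weaker peaks, both on the Wnt4 side of the window's centre if the genes run in the same order in both releases. Here and below, a side names only a direction along the arm. It does not place a peak nearer to Wnt4 than to wg. The first lay on 2L at 7281519 to 7281800, was 282 bp wide and scored 57.5, a value that 29.5% of the peaks on 2L reached or passed. The second lay at 7306868 to 7307087, was 220 bp wide and scored 13.57, which 83.0% of the peaks on 2L reached or passed. Against a median of 29.9 over the 580 peaks elsewhere on 2L, the first was above and the second below. The 67913 bp from the second peak to the far edge of the window, on the Wnt10 side, held no peak in the list.

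All 3 peaks were set against the strongest parts of the list. Of the 583 peaks on 2L, 49.9% belonged to the 50% of the whole list with the highest scores, and the dpp peak and the first Wnt peak were among them. The strongest 25% of the list took in 22.3% of the peaks on 2L. The dpp peak was one of these, and neither Wnt peak was. For the Wnt cluster this depends on the window's edge. The limit of the strongest 25% was a score of 72.84, and a peak 197 bp outside the window passed it with 73.42. Both limits were set on the whole list, of whose 5136 peaks 3182 lie on the 6 chromosome arms. The highest 25% of scores began at 69.2 on these arms and at 65.2 on 2L, and neither Wnt peak reached either value.

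**Figure D1:**
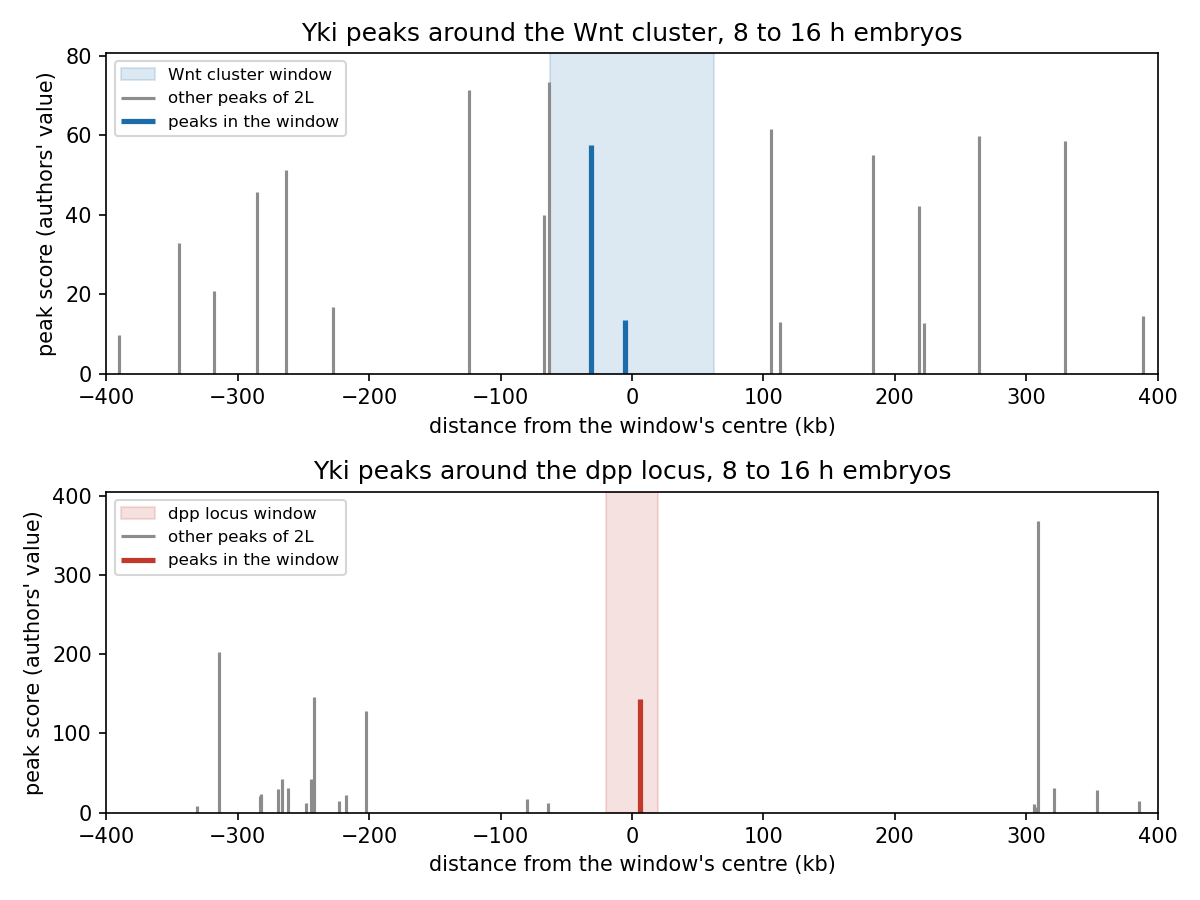
Yki peaks on 2L on either side of the centre of the Wnt cluster window (upper panel) and of the dpp window (lower panel), with the distance from the window's centre in kb on the x axis and the peak score as deposited by the authors on the y axis. The scales of the y axes differ between the panels. The shaded bands are the windows, coloured lines the peaks inside them (57.5 and 13.57 for the Wnt cluster, 143.66 for dpp) and grey lines the other peaks.

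For their width, the dpp peak and the first Wnt peak had high scores. Scores rise with width in this list, so each was set beside the other peaks on 2L whose width lay within 10% of its own. Of 70 such peaks of 254 to 310 bp, which had a median score of 18.6, 1 reached the 57.5 of the first Wnt peak, and it scored 59.15. Among the 476 peaks of like width on all 6 arms, 2L included, that same peak was the only 1 to do so.

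The dpp peak was also set beside peaks of like width. Of 70 other peaks on 2L of 486 to 594 bp, which had a median score of 35.3, 3 scored at least 143.66, and the highest of them had 284.82. On the 6 arms 31 of 409 did, or 7.58%. The second Wnt peak was ordinary for its width, since 29 of 69 peaks of 198 to 242 bp, or 42.0%, scored at least as high and their median was 12.9.

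**Figure D2:**
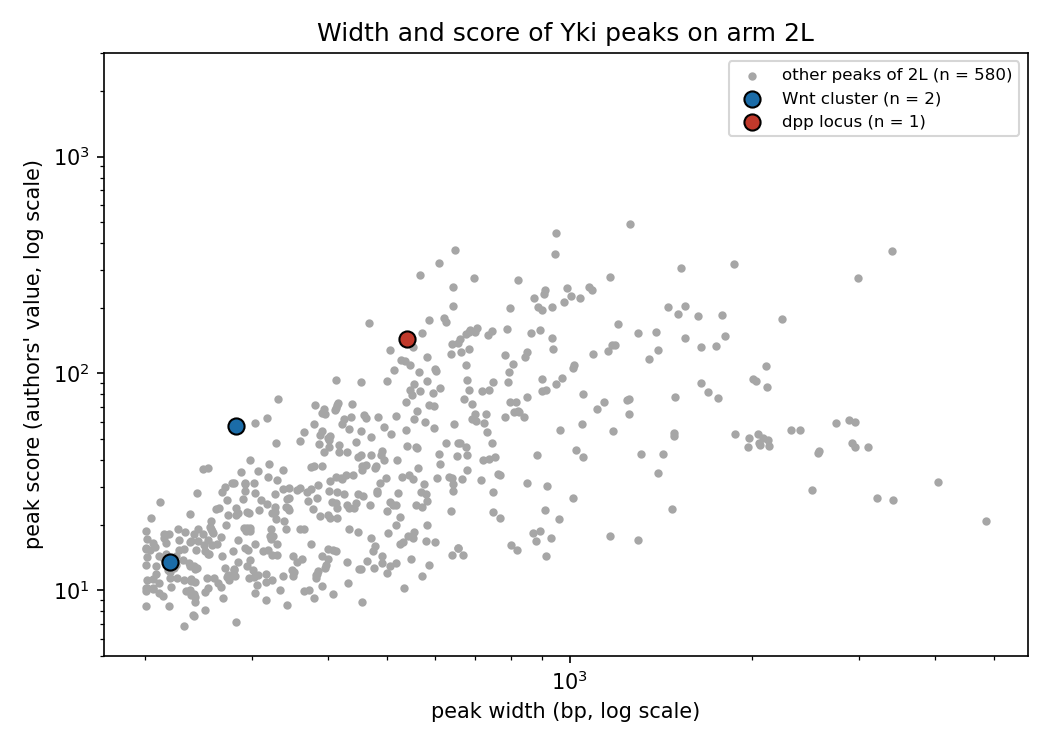
Peak width in bp (x axis, log scale) against the authors' peak score (y axis, log scale) for the peaks on 2L. Each point is 1 peak, in blue for the 2 peaks of the Wnt cluster, red for the dpp peak and grey for the 580 others; the Wnt peak of 282 bp and score 57.5 and the dpp peak of 540 bp and score 143.66 lie near the upper edge of the points of like width.

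The peak at dpp stood alone. The nearest peak on its left ended 69708 bp away, at 2380895 to 2381103, with a score of 11.87. On its right the list held nothing for 299670 bp. Among the 582 peak-free stretches between neighbours on 2L, whose median length was 15.3 kb, 4 were at least as long as that one, itself included.

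The peaks that closed the stretch on the right came in a run. A peak at 2751022 to 2751338 scored 10.94 and one at 2751415 to 2751655 scored 7.59. They were followed at 2752550 to 2755942 by a peak of 3393 bp with a score of 368.65, within the highest 0.686% on 2L. Only 4.8% of the peaks on 2L, 28 of 583, had their nearest neighbour at least as far off as the dpp peak. Their median score was 31.6, and 3 of them scored 143.66 or more, the dpp peak among these.

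The peaks of the Wnt cluster were also single, at shorter distances. They lay 25067 bp from each other, and 21.6% of the peaks on 2L had a nearest neighbour at least that far away. To the left of the first there was no peak for 31716 bp. The stretch to the right of the second, 111370 bp long, ran past the Wnt10 end of the window, and 9.79% of the stretches on 2L were at least as long. None of the 3 peaks at either locus had a neighbour within 10 kb, which held for 36.7% of all peaks on 2L.

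Just outside the Wnt window, on the side of Wnt4, lay a peak that scored higher than both peaks within. It was found at 7249387 to 7249802, ended 197 bp short of the window's edge and scored 73.42. A further peak at 7245326 to 7245623 scored 40.04. On the Wnt10 side the first peak, at 7418458 to 7418882, scored 61.74, and the next, at 7424973 to 7425209, scored 12.97. The Wnt4 side of the cluster thus had peaks of 40.04 to 73.42 close to the window, whereas the nearest on the other side was 43457 bp from it.

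**Figure D3:**
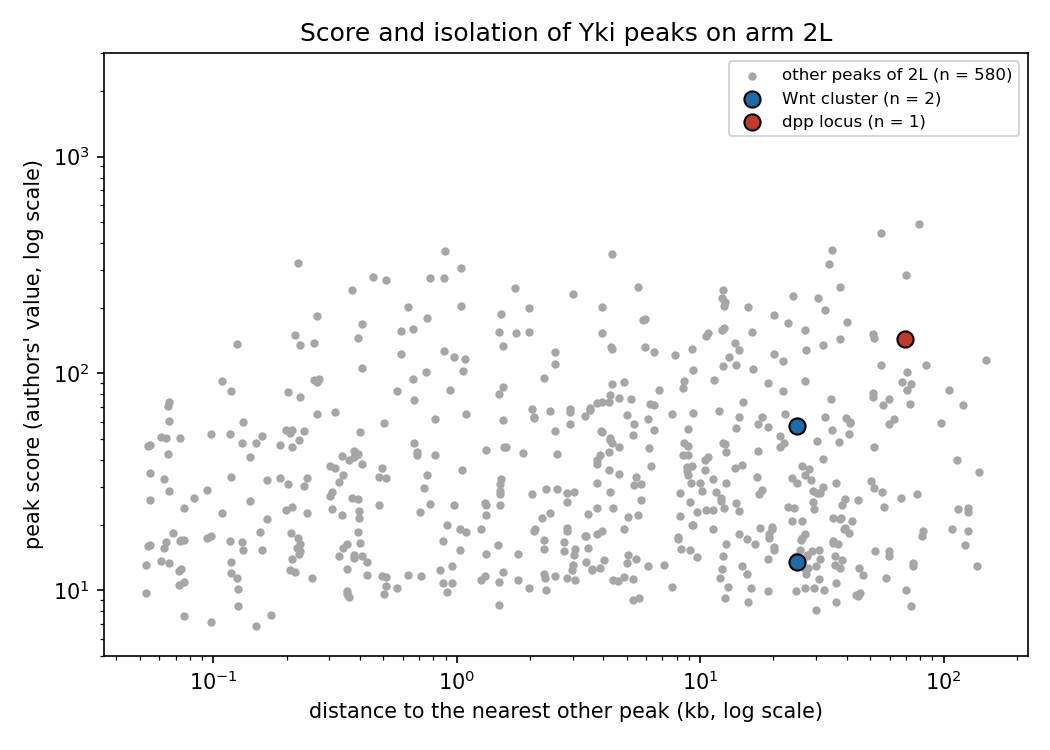
Distance to the nearest other peak in kb (x axis, log scale) against the authors' peak score (y axis, log scale) for the peaks on 2L. The dpp peak (red, nearest neighbour 69.7 kb away, score 143.66) lies towards the upper right, and both Wnt peaks (blue, 25.1 kb from each other) lie among the other 580 peaks (grey).

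In number, the peaks at both loci were ordinary for the arm. The 125 kb of the Wnt window with 2 peaks gave 16.0 peaks per Mb, with an exact Poisson 95% interval of 1.94 to 57.8 that covers counting error only. The 40 kb of the dpp window with 1 peak gave 25 per Mb (0.633 to 139). The rest of 2L had 25.4 per Mb, inside both intervals, so that no difference in density was detectable with so few peaks. At the density of 2L, 3.17 peaks would fall in the Wnt window and 1.01 in the dpp window.

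Windows of the same width laid side by side along 2L varied widely in their counts. Their medians were 2 peaks per 125 kb, with up to 36, and 1 peak per 40 kb, with up to 18. At least 2 peaks fell in 66.8% of the 184 windows of 125 kb, and at least 1 peak in 51.3% of the 575 windows of 40 kb. Within 1 Mb centred on each window the list held 24 peaks for the Wnt cluster, with a median score of 44.0 and a highest of 103.3. The same span around dpp held 33 peaks, with a median of 22.6 and a highest of 368.65.

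**Figure D4:**
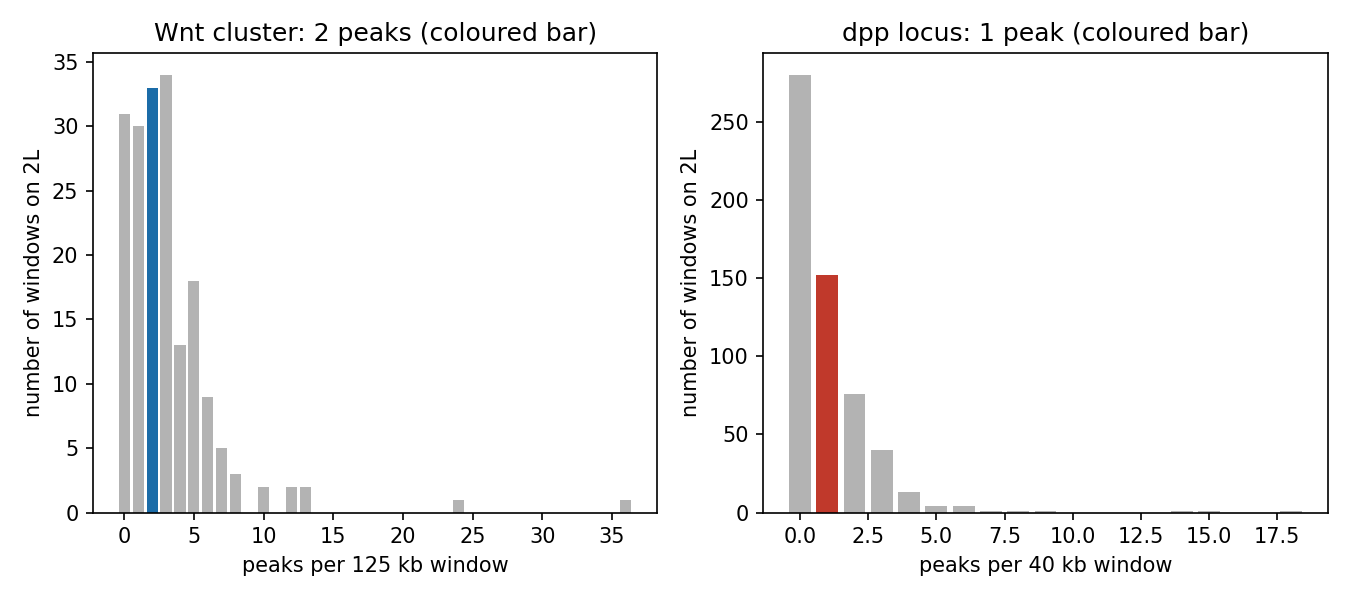
Number of side-by-side windows on 2L (y axis) by the number of Yki peaks in them (x axis), for windows of 125 kb (left, n = 184) and 40 kb (right, n = 575). The coloured bars hold the windows with as many peaks as the Wnt cluster (2) and the dpp locus (1), which are the medians on the arm.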

How the data were processed

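ChIP-seq for Yki was done on embryos crosslinked in 1.8% formaldehyde for 15 min, per the labels. The deposited file is a list of MACS binding sites on FlyBase release 5, per the file headers, with 1 score per peak whose scale and normalization the authors do not state. The submitters' processing notes name BWA, MACS2, CASAVA (1.7.0.2; 1.7.0.3) and the build BDGP5. Their parameters, the way ChIP and input libraries were pooled or compared, and the depth of each library are not given in the sources used. It is not stated whether replicates were separate embryo collections.

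Peaks overlapping each window by at least 1 bp were counted. Arm length was taken as the furthest peak end, which slightly understates it. Distances are the bases between neighbouring peaks. Percentages on 2L are over its 583 peaks. Every peak in the windows, the 5 genes, their neighbours and the nearest peaks outside are named. The counting steps were checked on simulated peaks with known answers. Windows, genes and measures were chosen with earlier results of these data known, and the comparison at like width after the values were seen. A genome or annotation of release 5 was not used here, so no sequences, motifs or gene parts are given. Values were computed in Python 3.11.15 with pandas 2.3.3 and numpy 2.4.6, intervals with scipy 1.17.1, and figures drawn with matplotlib 3.10.9.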

Additional observations from a re-analysis of the deposited data

How the results depend on the processing

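Of 43 alternatives over 10 values, 35 stayed alike and 8 moved. Counts were taken as alike within 1.5 times the reported count, densities and shares within the 95% interval of the reported value, and median scores, which have no interval here, only when equal. In the strongest 50% of the list the Wnt window kept 1 peak, with a score of 57.5, and in the strongest 25% it kept 0 peaks and a density of 0. Widened by 10 kb on each side it took in the pair of peaks just outside on the Wnt4 side and held 4, with a median score of 48.8 in place of 35.5. The nearer of that pair, at 73.42, was in the strongest 25%. The dpp window kept its 1 peak throughout. Its score and position fixed this, so those rows are no test. Wide intervals let dpp densities of 16.7 (widened) and 50 per Mb (narrowed) pass as alike. The same holds for the Wnt density, which went from 16.0 to 27.6 per Mb in the widened window. That is from below to above the 25.4 per Mb of the rest of 2L. Among peaks whose width lay within 5%, 0% (0 of 35 for the first Wnt peak, 0 of 37 for the dpp peak) scored at least as high, against 1.43% and 4.29% within 10%; at 20% it was 2.14% and 7.41%. The intervals of the 0% values, up to 10.0% and 9.49%, hold the reported shares, and the order of these peaks was not tested. These width settings were chosen after seeing the data. No paired analysis was possible because replicates have no values of their own, nor could a replicate be left out. Distances to transcription starts, the pathway gene list, promoter motifs and protein identity were not run. The unknown depth limits what can be said of weak sites at either locus.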

Other observations

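Peaks as isolated as the one at dpp were set beside all peaks of the arms. Of the 3182 peaks on the 6 arms, 115 had their nearest neighbour at least as far away as the dpp peak, and 7 of these, or 6.09%, scored at least 143.66, against 302, or 9.49%, of all peaks on the arms. On 2L itself it was 3 of 28 isolated peaks, against 9.78% of all peaks on that arm. Of the other arms, 3L held 3 of the 7, X held 1, and 2R, 3R and chromosome 4 held 0. The 115 isolated peaks had a median score of 24.1, against 30.7 over all peaks of the arms. Both limits are the dpp peak's own values, so it is counted by construction in the 115, the 7, the 28 and the 3. With so few peaks, whether the share on 2L lies above or below 9.78% depends on counting it. The limits were chosen after the values were seen, and no test was made.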
